A study of Arabidopsis thaliana with 18 samples.

Results

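The 7 cytokinin oxidase/dehydrogenase (CKX) genes of Arabidopsis were examined in 5 lists of DNA regions bound in vitro by the MADS-domain transcription factor FRUITFULL (FUL). They are CKX1 (AT2G41510), CKX2 (AT2G19500), CKX3 (AT5G56970), CKX4 (AT4G29740), CKX5 (AT1G75450), CKX6 (AT3G63440) and CKX7 (AT5G21482), 7 of the 37899 annotated genes of the nuclear chromosomes. A peak was assigned to a CKX gene when it overlapped the gene or the 3 kb on either side by at least 1 bp. This gave 7 peaks of the 16105 in the lists, all at CKX1. The family was selected on the FUL list itself, in which the highest peak lies upstream of CKX1, so the height of that peak is given here as a description and supports nothing further.

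The data come from DAP-seq, in which tagged protein made in vitro is mixed with a library of naked genomic DNA fragments and the fragments it retains are sequenced. The protein mixtures were FUL-SOC1, FUL-AG-SEP3, FUL-AG, FUL-SEP3 and FUL alone, each with 3 replicates, beside 3 input samples without a peak list here. In each mixture 400 ng of a library from leaves of 2-week-old Col-0 seedlings was offered, wheat germ extract produced the proteins from plasmids, and the retained DNA was amplified for 20 PCR cycles. Per the study's methods, the plasmids of a mixture were equimolar and together did not exceed the amount given for FUL alone. Less FUL plasmid thus went into each mixture with a partner than into FUL alone, and whether this bears on the folds was not tested. FUL carried the 3xFLAG tag in all mixtures and its partners were untagged, so each list reports fragments recovered through FUL, and which complex held a fragment was not measured. The partners SOC1, AG and SEP3 are MADS-domain proteins too: SOC1 is known for the floral transition, AG for stamens and carpels, and SEP3 as a cofactor in floral organ identity. The 3 replicates of a mixture were combined before peak calling, so each peak has 1 value per mixture, with no replicate spread and no test of a difference between mixtures. Fold enrichment is the ratio of the pooled read pileup at the summit to its local background.

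CKX enzymes cleave the side chain of cytokinins and so remove the active hormone irreversibly. Cytokinins maintain cell division in shoot and floral meristems, and in Arabidopsis loss of CKX3 and CKX5 together enlarges the inflorescence meristem and raises the number of ovules. Family members act in different compartments, for example CKX2 in the apoplast and CKX7 in the cytosol. MADS-domain dimers recognise the CArG-box, a run of 10 bases with 2 C, 6 positions of A or T, and 2 G.

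The bound DNA at CKX1 lay in 2 separate sites. The distal site had a peak in all 5 lists and the proximal site in the FUL-SOC1 and FUL-AG-SEP3 lists. Below are the 200 bases centred on the summit of the highest peak of each, on the plus strand, which is also that of CKX1, read from the RefSeq genome TAIR10.1, whose nuclear chromosomes carry the TAIR10 coordinates of the lists. They are shown because they carry all 7 peaks of the family, and capitals mark each CArG-box with at most 1 mismatch. The distal window is chr2:17311621-17311820, centred on the FUL summit, and the proximal window is chr2:17313018-17313217, centred on the FUL-SOC1 summit.
CKX1 distal site: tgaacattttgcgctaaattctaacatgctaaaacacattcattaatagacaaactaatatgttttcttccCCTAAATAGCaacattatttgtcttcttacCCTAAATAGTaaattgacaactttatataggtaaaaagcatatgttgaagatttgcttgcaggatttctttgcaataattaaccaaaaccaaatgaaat
CKX1 proximal site: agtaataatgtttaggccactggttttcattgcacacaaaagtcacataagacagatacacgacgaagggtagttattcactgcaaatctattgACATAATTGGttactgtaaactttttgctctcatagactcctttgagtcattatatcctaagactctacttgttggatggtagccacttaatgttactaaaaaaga

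CKX1 lies on chromosome 2 from 17314412 to 17317354, transcribed rightward. The distal site spanned 413 bp, from 17311498 to 17311910, in intergenic DNA. Its 5 summits fell between 17311712 and 17311723, within 11 bp of each other, and lay 2689 to 2700 bp upstream of the CKX1 start. The nearest annotated start to each of them was that of CKX1, 2691 bp from the FUL summit. The start of AT2G41505, a gene described below, was little farther from the FUL summit, at 2969 bp. That gene runs leftward and spans 17312099 to 17314690. Its body thus lies nearer to the distal site than that of CKX1, and the distal site is downstream of it. On the other side the next gene, LIS (AT2G41500), has its start 4295 bp from the FUL summit. The proximal site spanned 343 bp, from 17312937 to 17313279, and its 2 summits lay 1294 bp (FUL-SOC1) and 1202 bp (FUL-AG-SEP3) upstream of the CKX1 start. Both summits fell in an intron of AT2G41505, a gene annotated as protein-coding on the opposite strand that overlaps the first bases of CKX1. This gene is taken from the RefSeq annotation, and whether the annotation used by the authors holds it was not examined here. Without it the proximal site too is intergenic DNA upstream of CKX1. Between the 2 sites were 1026 bp without a peak in any list. A search of the nuclear chromosomes found no near copy of either site, taken as 90% identity across 50% of the site or more.

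**Figure D1:**
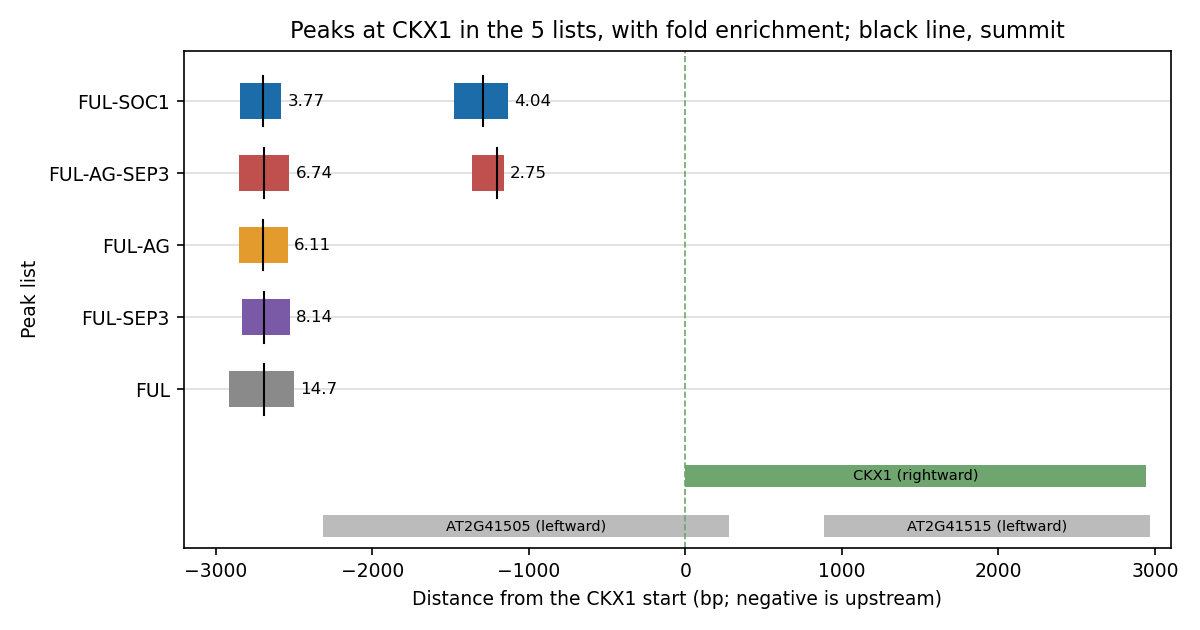
Peaks within 3 kb of CKX1 by list. The x axis is the distance from the CKX1 start in bp, each bar is a peak with its fold enrichment beside it and its summit as a black line, and the lower bars are annotated genes. The distal peaks of the 5 lists share a summit within 11 bp, and the proximal peaks are found in 2 lists.

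At the distal site the fold enrichment was 3.77 in FUL-SOC1, 6.74 in FUL-AG-SEP3, 6.11 in FUL-AG, 8.14 in FUL-SEP3 and 14.7 in FUL. FUL alone was thus highest and FUL-SOC1 lowest, 3.89 times apart, with the other mixtures between them. The amount of FUL plasmid also differed between FUL alone and the mixtures with a partner, as described above. The -log10 p of the peaks was lowest, 12, in FUL-SOC1 and highest, 115, in FUL. Since folds differ in general between lists, the peak was also ranked within each list. It was first of 2590 peaks in FUL, 8th of 4457 in FUL-AG-SEP3 and 8th of 1390 in FUL-SEP3, where 2 peaks shared that fold. In FUL-AG it was 20th of 2837, and in FUL-SOC1 622nd of 4831, where 23 peaks shared that fold. Expressed against the median peak of its list, the distal peak stood 3.72 times higher in FUL, 2.15 times in FUL-SEP3, 2.16 times in FUL-AG-SEP3, 1.90 times in FUL-AG and 1.23 times in FUL-SOC1. The FUL peaks that followed it had folds of 14.5, nearest to the start of COAD (AT2G18250), and 14.1, nearest to AT3G43526, so the lead of CKX1 in that list was small.

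The proximal site showed the other order. Its fold was 4.04 in FUL-SOC1, rank 357, and 2.75 in FUL-AG-SEP3, rank 3374. These folds were shared by 22 peaks of the FUL-SOC1 list and 73 peaks of the FUL-AG-SEP3 list. In FUL-SOC1 it was therefore the higher of the 2 CKX1 sites, with 7.37% of the list above it, whereas in FUL-AG-SEP3 75.7% of the list was above it. The FUL-AG-SEP3 peak had a -log10 q of 3.80, the weakest support among the 7 peaks, and the FUL-AG, FUL-SEP3 and FUL lists held no peak there. A site that is missing from a list did not pass the authors' q-value threshold in that mixture, and its enrichment below the threshold was not analysed here.

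**Figure D2:**
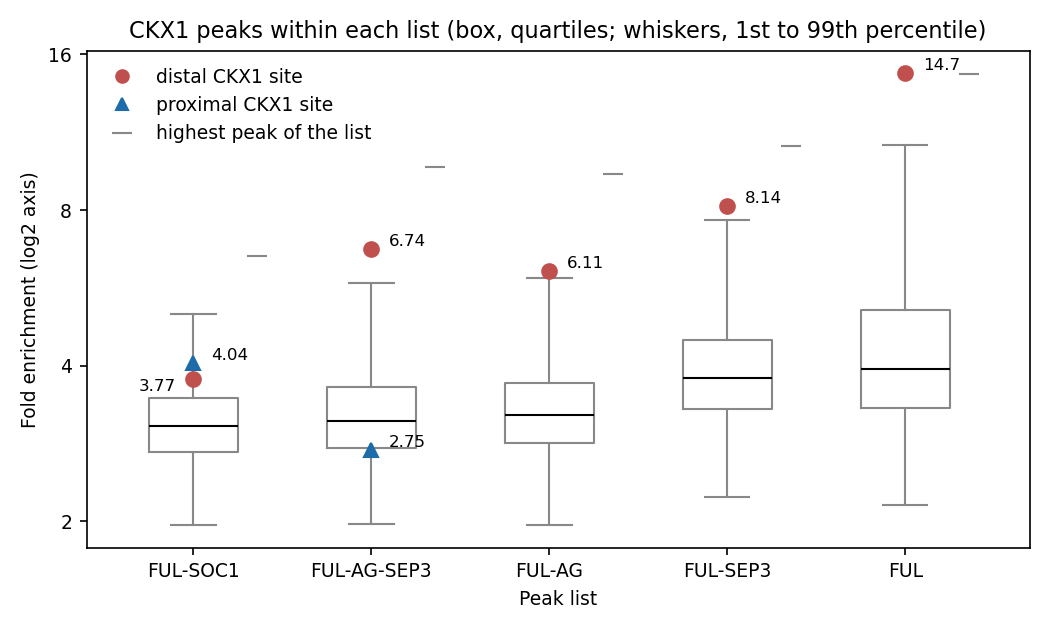
Fold enrichment of the CKX1 peaks within each list, on a log2 axis. Boxes give the quartiles of all peaks of a list, whiskers the 1st and 99th percentiles, and the grey dash the highest peak. The distal peak (circles) is above the 99th percentile of every list except FUL-SOC1, where it is at 3.77 and the proximal peak (triangle) is at 4.04.

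Merging all nuclear peaks of the 5 lists by overlap gave 8081 sites, of which 510 (6.31%) had a peak in every list. Among those 510 the distal CKX1 site ranked 1st by fold in FUL, 7th in FUL-AG-SEP3, 8th in FUL-SEP3, 17th in FUL-AG and 197th in FUL-SOC1. The ratio of the FUL to the FUL-SOC1 fold was 3.89 at CKX1, against a median of 1.52 over the 510 sites, and 3 sites had a higher ratio. The ratio of FUL to FUL-SEP3 was 1.80 at CKX1, against a median of 1.32, and 10.6% of the sites exceeded it. The rank in FUL and both of these ratios contain the FUL fold by which the family was selected. High values there were set in advance, and nothing is read from them. The ranks in the other lists come from mixtures with the same tagged FUL. Whether they are independent of that selection was not tested. The pattern of the proximal site, a peak in FUL-SOC1 and FUL-AG-SEP3 and in no other list, was found at 534 sites (6.61%). Its FUL-SOC1 to FUL-AG-SEP3 ratio of 1.47 was the 41st highest of these, against a median of 1.07. All of these ratios compare single pooled values, and no error can be attached to them.

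**Figure D3:**
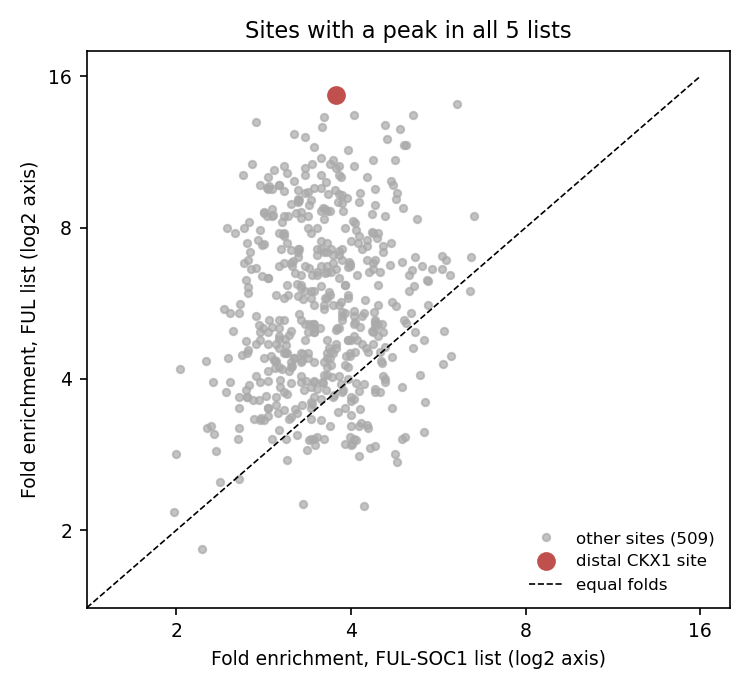
Fold enrichment in the FUL list (y axis) against the FUL-SOC1 list (x axis), both on log2 axes, for the 510 sites with a peak in all 5 lists. The distal CKX1 site (large point, 14.7 in FUL and 3.77 in FUL-SOC1) is at the top of the FUL axis and mid-range on the FUL-SOC1 axis.

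Neither CKX1 window printed above held an exact CArG-box. The distal window held a pair of boxes with 1 mismatch each. They are given here with 5 flanking bases, because the summits of all 5 lists lie between their centres.
distal left box: cttccCCTAAATAGCaacat
distal right box: cttacCCTAAATAGTaaatt
proximal box: tattgACATAATTGGttact
Counting positions from 1 at the 5′ end of the box as printed, with the base of the motif first, the mismatches are G10C in the left box, G10T in the right box and C1A in the proximal box. Because the motif reads alike on both strands, position 10 of one strand is position 1 of the other. In these 3 boxes the mismatch is thus at an outer base and the A/T core is intact. Outside the printed window, the FUL-SOC1 peak of the proximal site covered another box with 1 mismatch, at chr2:17312984-17312993. Its mismatch, C2A, is at the inner C. The left box is at chr2:17311692-17311701 and the right box at chr2:17311722-17311731. Their starts are 30 bp apart, leaving 20 bp between them, and 16 of the 20 bases shown are identical, including the run CCCTAAATAG. The summits lay 16 to 27 bp to the right of the centre of the left box and 3 to 14 bp to the left of the centre of the right box, FUL-AG being farthest from the right box. All 3 bases that follow the right box are A or T, against 2 of 3 for the left box. Of the 3 bases that precede each box, 2 are A or T at the right box and 1 at the left box. The proximal box, chr2:17313112-17313121, has its centre 2 bp from the FUL-SOC1 summit. The FUL-AG-SEP3 summit of that site lay farther from the box, 92 bp to the right of the FUL-SOC1 summit.

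Such boxes were common under the peaks. A box with at most 1 mismatch was present in both CKX1 windows, against 69.0% of the 200-bp summit windows of all nuclear peaks in FUL-SOC1, 68.2% in FUL-AG-SEP3, 71.1% in FUL-AG, 77.2% in FUL-SEP3 and 74.1% in FUL. An exact box, absent from both, was present in 13.6% of the windows in FUL-SOC1, the lowest share, 22.3% in FUL-SEP3, the highest of the 5 lists, and 20.4% in FUL. A pair of boxes that do not overlap, with no exact box, as at the distal site, was found in 17.1% of FUL windows. Pairs at a spacing of 30 bp were found in 0.312% of windows in FUL-SOC1, 0.406% in FUL-AG-SEP3, 0.498% in FUL-AG, 0.870% in FUL-SEP3 and 0.739% in FUL (19 of 2572), a spacing that was looked up after it had been seen at CKX1. Most copies of these box sequences lay outside the summit windows. The sequence of the left box occurs 93 times in the nuclear genome and lay in a summit window 4 times in FUL-SOC1, 3 in FUL-AG-SEP3, 2 in FUL-AG, 3 in FUL-SEP3 and once in FUL, at CKX1. The sequence of the right box occurs 203 times and lay in 4 to 7 windows per list, and that of the proximal box occurs 411 times and lay in 2 to 9, with 9 in FUL-SOC1.

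In each list 1 of the 7 CKX genes had a peak within 3 kb. Over all annotated genes the share with such a peak was 28.0% in FUL-SOC1, 26.0% in FUL-AG-SEP3, 17.6% in FUL-AG, 8.86% in FUL-SEP3 and 16.2% in FUL. A peak of any list was present at 1 of 7 CKX genes, against 42.5% of all genes, and peaks of all 5 lists at 1 of 7, against 4.04% of all genes. Since the family was chosen from the FUL list, nothing is read from these shares.

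CKX2 to CKX7 had no peak within 3 kb in any list. Over these 6 genes and 5 lists the distance from the gene to the nearest peak ran from 4007 bp to 56.9 kb, with a median of 7.37 kb. The closest was a FUL-AG peak 4007 bp upstream of CKX4, just outside the window, whose fold was 2.86 and -log10 p 6.52. Its summit lay in an intron of NFC5 (AT4G29730), 533 bp from the start of that gene, and at the weaker end of the FUL-AG list, 74.1% of which was higher. CKX6 was the most uniform of the 6, with the nearest peak of each list 6.04 to 6.12 kb upstream and folds of 3.03 to 4.21. CKX3 had a FUL peak of fold 5.33 at 5.62 kb downstream, and peaks at 5.71 kb in FUL-AG-SEP3 and 5.72 kb in FUL-SEP3, whereas its nearest FUL-AG peak was 56.9 kb away. The nearest peaks of CKX2 were a FUL-SOC1 peak 5.76 kb upstream with a fold of 3.06 and a FUL peak 13.5 kb downstream with a fold of 7.16. For CKX5 the nearest FUL-SOC1 peak was at 7.10 kb and those of the other 4 lists were all at 25.2 kb, and for CKX7 the nearest of all was a FUL-SOC1 peak of fold 2.43 at 5.96 kb downstream.

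**Figure D4:**
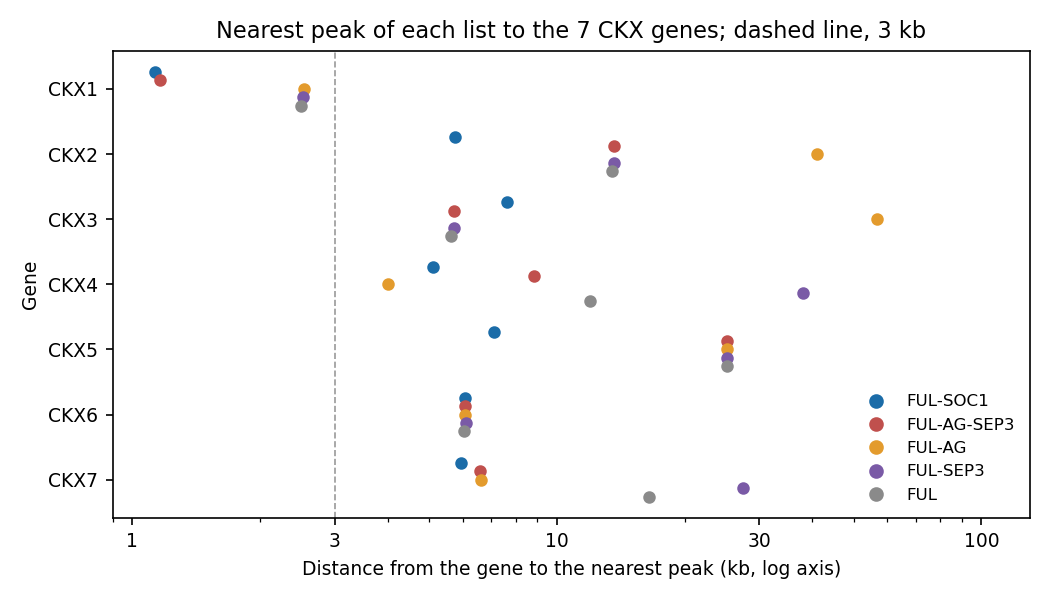
Distance in kb (log axis) from each CKX gene to the nearest peak of each list, 1 point per list. Points left of the dashed line at 3 kb belong to CKX1, and the nearest peaks of the other 6 genes lie between 4.01 and 56.9 kb.

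CArG-boxes with at most 1 mismatch were present in the 3 kb upstream of all 7 CKX genes, as they were for 98.0% of all genes. In the 3 kb upstream of the start no CKX gene had an exact box, against 18.1% of all genes with at least 1. Boxes with at most 1 mismatch numbered 9 upstream of CKX1, 5 each upstream of CKX3, CKX4 and CKX5, 4 upstream of CKX2 and 3 each upstream of CKX6 and CKX7, against a median of 4 over all genes. Exact boxes lay within the genes themselves at CKX3 (2 boxes) and CKX5 (1 box), in introns in each case, and no peak of any list covered them. They are printed on the plus strand of TAIR10.1 because they match the motif better than the boxes under the CKX1 peaks.
CKX3 first box: taagaCCAAAAAAGGtgatt
CKX3 second box: cataaCCAAAAATGGccgcg
CKX5 box: atataCCATTTTAGGgtttt
The boxes of CKX3 are at chr5:23047383-23047392 and chr5:23047486-23047495, 905 and 802 bp past its start, and the box of CKX5 is at chr1:28317125-28317134, 1246 bp past its start. Genome-wide 16.8% of the 7741 exact boxes of the nuclear chromosomes lay under a peak of any list.

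The other genes of cytokinin metabolism and signalling, 52 genes in 8 classes, were examined by the same window. Of these, 18 had a peak in FUL-SOC1 (34.6%), 20 in FUL-AG-SEP3 (38.5%), 13 in FUL-AG (25.0%), 5 in FUL-SEP3 (9.62%) and 13 in FUL (25.0%). Over all annotated genes the shares were 28.0%, 26.0%, 17.6%, 8.86% and 16.2% in the same order, lower in each list, and whether this differs from other gene groups was not tested. In all, 28 genes (53.8%) had a peak of any list, against 42.5% of all genes, and 3 (5.77%) a peak of every list, against 4.04% of all genes. For 13 of the 28 the highest peak lay nearer to the start of another gene, so a peak in the window does not assign the gene. CKX1 had the highest fold of the 59 genes in 4 of the lists, and in FUL-SOC1 it was exceeded by LOG1 (AT2G28305). The 4 include the FUL list, from which the family was selected. The other lists come from mixtures with the same tagged FUL, and whether their folds are independent of that selection was not tested.

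Among the synthesis genes, isopentenyltransferases that form the cytokinin side chain, 5 of 9 had a peak of any list, near the 42.5% of all genes. IPT4 (AT4G24650) had peaks in 4 lists with folds of 2.16 to 3.24, and IPT6 (AT1G25410) in 3 lists with 3.07 to 3.86. The highest of the class was a FUL peak at IPT7 (AT3G23630) of 4.23. At IPT4, IPT6 and IPT7 alike the highest peak lay nearer to the start of another gene. Of the 2 hydroxylases that make trans-zeatin, CYP735A2 (AT1G67110) had 1 peak, in FUL-SOC1 with a fold of 3.95. The LOG enzymes, which release active cytokinin from its nucleotide, had a peak of any list at 7 of 8 genes, against 42.5% of all genes. Whether so small a class differs from that share was not tested. LOG1 had a peak in every list 2433 bp upstream of its start at the highest one, with folds of 5.79 in FUL-SOC1, 5.30 in FUL-AG-SEP3, 5.78 in FUL-AG, 5.87 in FUL-SEP3 and 4.97 in FUL. FUL alone gave the lowest of the 5 values at LOG1, whereas at CKX1 it gave the highest. The high FUL value at CKX1 was set by the selection of the family, so nothing is read from this contrast. LOG6 (AT5G03270) was in 4 lists, all but FUL, with folds of 3.77 to 4.48. LOG7 (AT5G06300) was in 3 lists with its highest fold, 6.06, in FUL, and LOG5 (AT4G35190) in 3 lists with 2.31 to 2.56. Of the 3 glucosyltransferases, which inactivate cytokinin by conjugation, UGT85A1 (AT1G22400) had a FUL-SOC1 peak of 3.37.

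None of the 3 cytokinin receptors AHK2, AHK3 and AHK4 had a peak within 3 kb in any list, and with so few genes, against 42.5% of all genes with a peak, nothing is read from this count. Of the 6 phosphotransfer genes 5 had one, against the same 42.5% of all genes, and whether this class differs was not tested. The highest fold was 3.82, in FUL-AG-SEP3 at AHP4 (AT3G16360), from a peak nearer to the start of AT3G03285. AHP5 (AT1G03430) was in 3 lists with 2.30 to 3.40. Of the 10 type-A response regulators, which dampen the response, 5 had a peak, also near the share of all genes. ARR5 (AT3G48100), a rapidly cytokinin-induced gene, had folds of 3.64 in FUL-SOC1, 4.83 in FUL-AG-SEP3, 5.10 in FUL-AG, 4.38 in FUL-SEP3 and 7.16 in FUL. Its highest value was in FUL and its lowest in FUL-SOC1, as at the distal CKX1 site, and all 5 values belong to 1 merged site. A FUL fold above the FUL-SOC1 fold was usual, being found at 440 of the 510 sites with a peak in every list. ARR8 (AT2G41310) and ARR9 (AT3G57040) were each in 3 lists and were highest in FUL, the list with the highest median fold, at 5.51 and 4.41. The highest ARR9 peak had its summit in a coding exon of AT3G57050 and lay nearer to the start of that gene. Of the 11 type-B regulators, the transcription factors of the pathway, 4 had a peak, again near that share. ARR20 (AT3G62670) was in all lists with 2.81 to 5.06, ARR2 (AT4G16110) in 3 with 3.55 to 4.23, and ARR18 (AT5G58080) in 3 with 2.72 to 2.85. The highest ARR2 peak lay nearer to the start of another gene, AT4G16120.

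**Figure D5:**
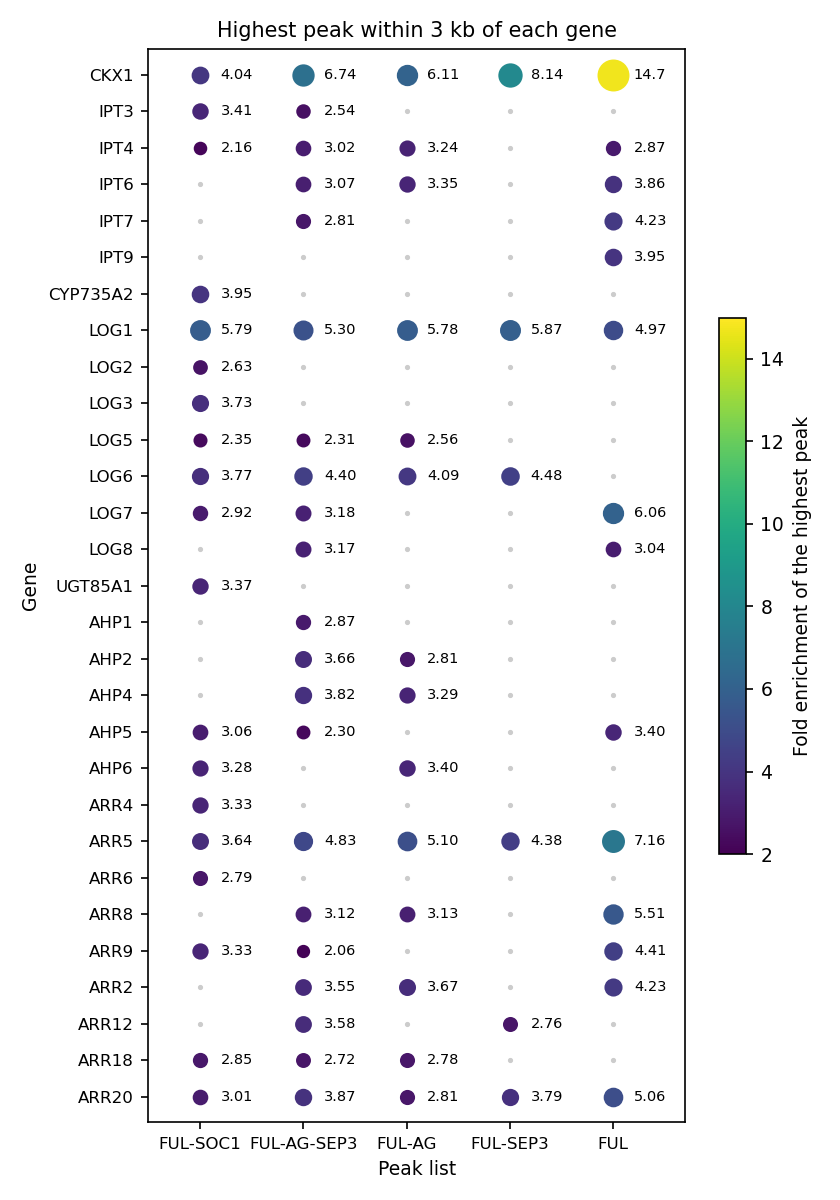
Fold enrichment of the highest peak within 3 kb of CKX1 and of the 28 other cytokinin genes with a peak, by list. Point size and colour give the fold, which is printed beside each point, and a small grey dot means no peak. CKX1 reaches 14.7 in FUL, and LOG1, ARR5 and ARR20 are the others with a peak in every list.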

How the data were processed

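Per the labels and the study's methods, the authors used Trim Galore for trimming and HISAT2 for mapping to TAIR10, and MACS2 then gave narrow peaks over the input from the 3 combined replicates of each mixture (versions not given in the sources used here). The deposited fold enrichment is a ratio of pileup to local background, and the deposited -log10 p and -log10 q are those of MACS2, with all q-values under 0.05. Read depth is not in the lists, and no count of reads was used. Peaks on the 5 nuclear chromosomes were compared by position with the RefSeq annotation of TAIR10.1, whose nuclear sequence all peak coordinates fitted. Mitochondrial peaks were left out of gene and sequence steps. Coordinates count from 1. Sequences were read from that genome, and the CArG-box was searched in 200-bp summit windows, with at most 1 mismatch. Copies were sought with BLAST 2.17.0. Overlap, merging and box searches were tested on simulated data with Python 3.11.15, NumPy 2.4.6, SciPy 1.17.1 and Matplotlib 3.10.9.

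The members and the list of 52 pathway genes were chosen with earlier results of these data known. The text names all CKX genes and their peaks, the genes nearest to or holding their summits, and, in each pathway class, the genes with a peak in at least 3 lists and the one with the highest fold. Other genes and peaks named were chosen after their values were seen. Alternatives were windows of 1 and 5 kb, p and q below 0.0001, other merging rules, other box windows and ranking by p.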

Additional observations from a re-analysis of the deposited data

How the results depend on the processing

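With 1 pooled list per mixture, no replicate could be left out. No paired analysis was possible because the lists combine the 3 replicates. Of 90 alternative values, 50 stayed within 1.5 times a count or within the 95% Wilson interval of a share, and 40 moved. With 1 kb on each side, 0 CKX genes and 0 peaks were found in every list, since the CKX1 peaks lie beyond that distance. With 5 kb, FUL-AG had 2 CKX genes and 2 peaks, through CKX4. With q below 0.0001, FUL-AG-SEP3 had 1 CKX peak, the distal one. No alternative merging changed the 2 sites. With no mismatch allowed, 0 of the 2 sites held a CArG-box. By -log10 p the distal CKX1 peak ranked 1 in FUL, 15 in FUL-AG-SEP3, 34 in FUL-AG, 16 in FUL-SEP3 and 732 in FUL-SOC1. The proximal peak, the higher of the CKX1 peaks in FUL-SOC1, ranked 426 there.

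The share of all genes with a peak, in the order FUL-SOC1, FUL-AG-SEP3, FUL-AG, FUL-SEP3 and FUL, was 15.5%, 14.6%, 9.75%, 4.72% and 8.94% with 1 kb on each side, and 38.4%, 35.9%, 24.9%, 12.8% and 23.1% with 5 kb. With q below 0.0001 it was 21.8%, 21.7%, 14.6%, 7.75% and 15.3%, and over protein-coding genes alone 28.7%, 27.1%, 18.1%, 9.22% and 17%. With 1 kb on each side the pathway genes with a peak numbered 13, 14, 7, 3 and 6 in the same order, and with q below 0.0001 they numbered 15, 16, 10, 4 and 13.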
